A study of Homo sapiens with 3 samples.

Results

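The cells described are OVCAR3 cells with a high combined level of 3 transcripts, FLG, CD70 and UCA1. OVCAR3 is an established cell line of high-grade serous ovarian carcinoma. The cells were profiled by droplet single cell RNA-sequencing (scRNA-seq), which counts RNA molecules by unique molecular identifiers (UMIs), after 48 h with vehicle (DMSO), with 50 μM of the RAC1 inhibitor NSC23766 (RAC1i), or with RAC1i plus 5 μM of the EZH2 inhibitor GSK126 (Combo). Each condition was 1 library, so no value has a biological replicate and no test between conditions or between cells was made. A library treated with the EZH2 inhibitor alone was not analysed here. The members were chosen by measured values: among the 20291 cells with at least 10000 UMIs, of 25985 that passed the quality filters, the score of a cell was the share of its UMIs that came from the 3 genes, and the top 5% of each library were taken. This gave 294 of 5871 cells in DMSO, 400 of 7983 in RAC1i and 322 of 6437 in Combo, 1016 in all. They were set against the other cells of the same library. Every difference in the 3 genes is therefore a product of the choice, and every other gene was measured in the same cells that were chosen, so the values are descriptions.

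FLG encodes filaggrin, a protein that bundles keratin filaments in the upper layers of the epidermis, and it lies in the epidermal differentiation complex, a cluster of genes for the skin barrier. CD70 encodes a ligand of the tumour necrosis factor (TNF) superfamily that binds CD27 on lymphocytes and is present on a number of carcinomas. UCA1 is a long noncoding RNA that was first described in bladder carcinoma. None of the 3 is a classical marker of ovarian serous cells.

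In GRCh38 with GENCODE 44 annotation, FLG lies on the minus strand at chr1:152302165-152325239, CD70 on the minus strand at chr19:6583183-6604103 and UCA1, annotated as a lncRNA, on the plus strand at chr19:15828206-15836328. FLG carried most of the score, so the 250 bases before its start site (GRCh38.p14, RefSeq, chr1:152325240-152325489, minus strand, written 5′ to 3′) are shown with matches to 3 motifs in capitals. TNFSF9, the gene next to CD70 that was also higher in the members, is shown for comparison (chr19:6530776-6531025, plus strand).
FLG: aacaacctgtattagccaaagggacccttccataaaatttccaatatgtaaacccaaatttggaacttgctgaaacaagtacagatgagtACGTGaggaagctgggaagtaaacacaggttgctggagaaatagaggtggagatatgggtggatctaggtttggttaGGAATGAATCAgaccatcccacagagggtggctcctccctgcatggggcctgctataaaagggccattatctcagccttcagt
TNFSF9: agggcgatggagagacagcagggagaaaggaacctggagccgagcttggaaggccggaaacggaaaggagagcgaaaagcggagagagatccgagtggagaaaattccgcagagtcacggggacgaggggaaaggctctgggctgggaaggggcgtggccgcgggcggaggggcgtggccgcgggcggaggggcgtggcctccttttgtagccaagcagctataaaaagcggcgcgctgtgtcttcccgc
The motifs searched on both strands were the AP-1 site TGANTCA, the TEAD site GGAATG and ACGTG, 1 form of the hypoxia response core. In FLG the TEAD match at -83 and the AP-1 match at -79 from the start site overlap, and the ACGTG match lies at -160. Of 27305 genes with a promoter in the table, 6.6% held an AP-1 match in the same 250 bases, 11.9% a TEAD match and 18.7% an ACGTG match. The E-box CANNTG, found 1 time in the FLG window, was present in 62.2%. The TNFSF9 window held none of the 4 motifs as searched. It does hold GCGTG, the other form of the hypoxia core, which was not searched in any promoter. Of the 7 promoters in the table for genes among the 12 highest in the members, 0 held an AP-1, TEAD or ACGTG match and 2 held an E-box. CD70 and UCA1 have no entry in the table. A match is a description of letters and not evidence of binding.

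The score was mainly a measure of FLG. FLG supplied 82.8, 80.6 and 77.9% of the members' score UMIs in DMSO, RAC1i and Combo, UCA1 12.1, 15.0 and 16.7% and CD70 5.08, 4.41 and 5.37%. FLG had the most UMIs of the 3 genes in 264 of 294, 344 of 400 and 258 of 322 members. The members held 41.8, 62.7 and 68.8% of the FLG UMIs of their library, but 10.4, 16.9 and 19.5% of the CD70 UMIs and 13.3, 17.1 and 19.4% of the UCA1 UMIs. The name of the cells therefore fits FLG better than the other 2 genes. All 3 transcripts were seen in 54.1, 36.5 and 35.7% of the members and in 22.1, 4.35 and 2.99% of the other cells.

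The cut fell at different levels in the 3 libraries. The last cell inside had a score of 1328, 460.1 and 389 counts per 1000000 UMIs (CPM) in DMSO, RAC1i and Combo, and the first cell outside 1319, 459.6 and 388. The tenth cells on either side had 1343, 467 and 397 inside and 1295, 451 and 386 outside, so the scores showed no gap at the cut. A cut at a fixed share of cells cannot show whether a separate group of another size exists. Median scores were 1863, 754 and 622 in members and 165, 47.2 and 31.1 in other cells, of which 14.8, 35.0 and 40.8% had none of the 3 transcripts. With the 95th percentile of DMSO as a common cut, 5.01% of DMSO cells were over it, against 0.939% of RAC1i cells (75 of 7983, Clopper-Pearson 95% interval 0.74 to 1.18) and 0.668% of Combo cells (43 of 6437, 0.484 to 0.899). These intervals, and all others given here, are exact at 95% and cover counting error only.

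Summed over members and over other cells, FLG was 1829.8 against 129 CPM in DMSO, 846 against 27.4 CPM in RAC1i and 675 against 16.5 CPM in Combo. CD70 was 112 against 49.2 CPM in DMSO, 46.3 against 12.4 CPM in RAC1i and 46.5 against 10.4 CPM in Combo. UCA1 was 268 against 88.6 CPM in DMSO, 157 against 41.6 CPM in RAC1i and 145 against 32.3 CPM in Combo. Members of the treated libraries thus had less of all 3 transcripts than DMSO members, and more than the other cells of DMSO in the case of FLG and UCA1 only. Over all cells used, FLG stood at 0.33 of its DMSO level in RAC1i and 0.238 in Combo, CD70 at 0.272 and 0.234, and UCA1 at 0.489 and 0.391.

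The 3 transcripts were seen in different shares of cells. The members were chosen by them, mainly by FLG, so the gaps between members and other cells follow from the choice. When each cell was thinned to 10000 UMIs, FLG was seen in 38.2, 15.0 and 10.3% of the other cells of DMSO, RAC1i and Combo and in 96.6, 92 and 85.4% of the members. The unthinned shares were 49.7, 24.4 and 17.9% and 97.3, 93.2 and 87.9%. CD70 was seen in 27.7, 9.9 and 8.18% of thinned other cells and 45.6, 28.5 and 27.6% of thinned members, UCA1 in 40.7, 28.0 and 22.5% and 62.2, 58 and 55.0%. In Combo the members, 5% of the cells and chosen mainly by FLG, held 68.8% of all FLG UMIs. These libraries hold no cell type known to lack the 3 genes, so the share that free RNA gives was not measured.

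**Figure D1:**
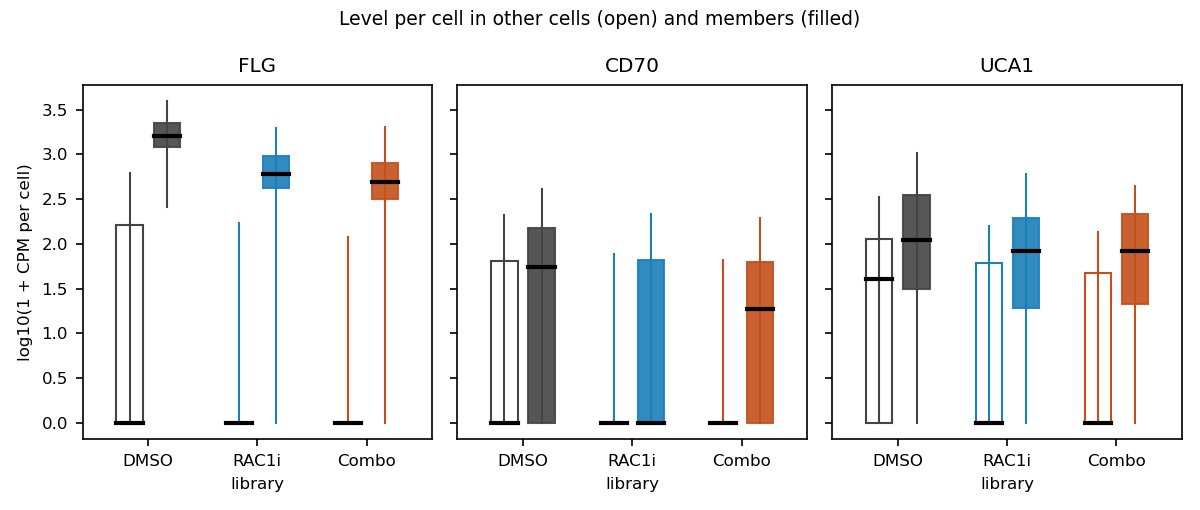
Level of FLG, CD70 and UCA1 per cell, as log10(1 + CPM), in other cells (open boxes) and members (filled boxes) of each library, with the median as a black line, the middle 50% of cells as the box and the 5th to 95th percentile as the line. FLG medians were 0 in the other cells of all 3 libraries and 1590.2, 607 and 484 CPM in the members, while the CD70 boxes of members and other cells overlap.

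To see whether the 3 genes marked the same cells, the top 5% were also taken by 1 gene at a time. Of the cells highest in CD70, 24.8, 20.8 and 22.4% were also among the highest in UCA1 in DMSO, RAC1i and Combo. The FLG-highest cells shared 6.8, 12.8 and 10.2% with the CD70-highest and 9.18, 12 and 13.98% with the UCA1-highest. Each set is 5% of all cells of its library. For FLG and CD70 in DMSO the interval of the share, 4.2 to 10.3%, included 5%, while those of the other pairs lay above it. CD70 and UCA1 therefore met in the same cells more often than either met FLG. The members held 82.3, 83 and 78.6% of the FLG-highest cells, 16.3, 20.2 and 21.4% of the CD70-highest and 23.5, 26.2 and 33.2% of the UCA1-highest.

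Levels gave a different order in the treated libraries. In cells chosen by FLG alone, CD70 differed from the other cells by log2 ratios of 0.30, 1.05 and 1.17 in DMSO, RAC1i and Combo, and UCA1 by 0.59, 0.86 and 1.04. In cells chosen by CD70 alone, UCA1 was higher by 1.75, 1.55 and 1.54 and FLG by 0.47, 1.98 and 1.78. In cells chosen by UCA1 alone, CD70 was higher by 1.82, 1.81 and 2.06 and FLG by 0.62, 1.245 and 1.69. The ratios between FLG and either other gene were smaller in DMSO than in both treated libraries, while those between CD70 and UCA1 were of similar size in all 3. In CD70-chosen cells, UCA1 had the larger ratio in DMSO and FLG in both treated libraries.

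Other genes also differed between these choices of cells. TNFSF9, the 4-1BB ligand, differed by 1.88, 2.65 and 2.598 in CD70-chosen cells and by 0.32, 1.20 and 1.35 in FLG-chosen cells. CTH, cystathionine gamma-lyase of cysteine synthesis, differed by 2.18, 1.88 and 1.98 in CD70-chosen cells, by 2.31, 2.00 and 2.34 in UCA1-chosen cells and by 0.89, 1.67 and 1.81 in FLG-chosen cells. PLAU, urokinase, differed by 1.51, 1.33 and 1.499 in CD70-chosen, 1.01, 1.26 and 1.02 in UCA1-chosen and -0.06, 0.55 and 1.04 in FLG-chosen cells, so that in Combo the last 2 choices gave nearly the same ratio. In contrast, SLC12A2, a sodium, potassium and chloride cotransporter, differed by 0.55, 0.72 and 0.62 in FLG-chosen cells and by 0.10, 0.47 and 0.42 in CD70-chosen cells.

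**Figure D2:**
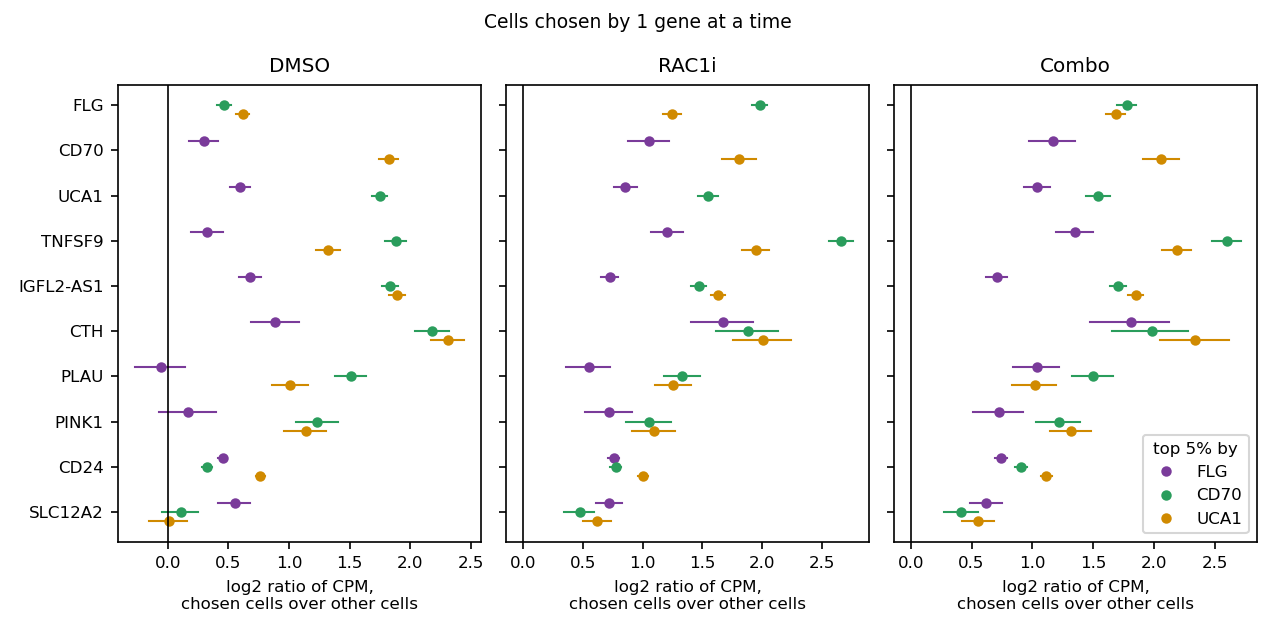
Log2 ratio of CPM of 10 genes in cells chosen by FLG (purple), CD70 (green) or UCA1 (orange) alone over the other cells of the same library, with exact 95% intervals for counting error. CD70, UCA1, TNFSF9, IGFL2-AS1 and PINK1 had higher ratios in cells chosen by CD70 or UCA1 than in cells chosen by FLG in each library, while SLC12A2 had its highest ratio in FLG-chosen cells, with an interval that overlaps that of UCA1-chosen cells in RAC1i and those of both other choices in Combo.

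FLG did not lead the score in every member. In 42 members of DMSO, 67 of RAC1i and 70 of Combo (14.3, 16.8 and 21.7%), FLG gave no more UMIs than CD70 and UCA1 together. This split uses the score genes, so it fixes their own levels and cannot show separate kinds of cell. In these cells CD70 was 336, 127 and 102 CPM, against 75.8, 30.5 and 30.2 CPM in the members led by FLG. IGFL2-AS1 was 408, 454 and 383 against 112, 155 and 132 CPM, and CTH 100.2, 23.3 and 20.9 against 31.1, 13.8 and 8.33 CPM. PLAU was 135 against 26.0 CPM in DMSO but 30.7 against 26.7 CPM in Combo. In DMSO the members led by FLG thus had a PLAU level close to that of the other cells, 22.5 CPM.

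Depth was near that of other cells, while the median mitochondrial share was higher in members of each library. Median UMIs were 29959, 27774 and 32481 in members and 31065, 25421 and 30315 in other cells of DMSO, RAC1i and Combo, and median genes detected 5765, 5088 and 5406 and 5860, 4768 and 5112. The median share of mitochondrial transcripts was 6.87, 1.71 and 1.74% in members and 6.28, 1.43 and 1.36% in other cells. Between 29 and 30 barcodes were common to each pair of libraries, and 3, 2 and 4 members had such a barcode. No doublet caller was run. Leaving out the 5% of cells with the most UMIs gave a count of 10 in place of the 11 genes described below.

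Of 8407 genes with at least 5 CPM in each library, 11 were at least 1.5-fold higher in members in all 3 libraries (0.131%) and 0 were at least 1.5-fold lower (0%). Differences of any size were more common, with 2528 genes higher in all 3 libraries (30.1%) and 1712 lower (20.4%). Taken library by library, 56 of 10119 genes were 1.5-fold higher in DMSO members (0.553%) and 42 lower (0.415%). In RAC1i the counts were 272 of 9068 higher (3%) and 98 lower (1.08%), and in Combo 415 of 9092 higher (4.56%) and 145 lower (1.59%). The members' profile thus stood further from that of the other cells in the treated libraries. The median log2 ratio over all 8407 genes was -0.01, 0.06 and 0.07.

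The 11 genes higher in every library included IGFL2-AS1, TNFSF9, PLAU, CXCL1, SLC12A2, PLEKHA7, FAM107A, IL1RAP, AREG and CA8. IGFL2-AS1, a lncRNA on chromosome 19, was the highest by its lowest ratio, at 153 against 72.8 CPM in DMSO, 204 against 86.7 CPM in RAC1i and 188 against 68.5 CPM in Combo. The fold was 2.11-fold (1.99 to 2.23) in DMSO, 2.35-fold (2.25 to 2.46) in RAC1i and 2.75-fold (2.62 to 2.88) in Combo. It was the only one of the 11 that stayed past 1.5-fold in every library under all 16 other ways of choosing, leaving out or weighting cells. With members chosen by FLG alone the count of such genes was 2, by CD70 alone 33 and by UCA1 alone 36.

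TNFSF9, which like CD70 encodes a TNF superfamily ligand that costimulates T cells, was 72.8 against 41.4 CPM in DMSO, 64.4 against 18.8 CPM in RAC1i and 58.6 against 14.6 CPM in Combo. Its fold was 1.76-fold (1.62 to 1.9) in DMSO and 4.01-fold (3.66 to 4.37) in Combo. In the other cells TNFSF9 was lower in both treated libraries than in DMSO, while the members of all 3 libraries stayed between 58.6 and 72.8 CPM. PLAU, the serine protease urokinase, was 41.3 against 22.5 CPM in DMSO, 27.2 against 15.6 CPM in RAC1i and 27.6 against 12.4 CPM in Combo. CXCL1, a neutrophil chemokine, was 81.4 against 43.6 CPM in DMSO, 713 against 426 CPM in RAC1i and 390.2 against 244 CPM in Combo, so the ratio was similar across libraries although its level was many times higher after treatment.

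The remaining genes of the group had varied roles. PLEKHA7, a protein of adherens junctions, was 42.4 against 27.1 CPM in DMSO, 40.4 against 21.3 CPM in RAC1i and 39.8 against 16.9 CPM in Combo. SLC12A2 was 59.6 against 37.9 CPM in DMSO, 64.6 against 38.5 CPM in RAC1i and 51.1 against 32.5 CPM in Combo. IL1RAP, the accessory chain of the interleukin-1 receptor, was 19.9 against 11.9 CPM in DMSO, 18.0 against 8.57 CPM in RAC1i and 15.98 against 6.44 CPM in Combo. FAM107A, an actin-associated protein, was 53.3 against 31.7 CPM in DMSO, 18.1 against 5.79 CPM in RAC1i and 19.9 against 5.8 CPM in Combo, and CA8, a carbonic anhydrase homologue, was 18.2 against 11.1 CPM in DMSO, 12.9 against 7.01 CPM in RAC1i and 11.3 against 6.89 CPM in Combo. AREG, the EGF receptor ligand amphiregulin, was 24.3 against 7.78 CPM in DMSO, 15.0 against 8.6 CPM in RAC1i and 15.8 against 10.2 CPM in Combo, with the largest ratio in DMSO.

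Others of the 12 highest fell short of 1.5-fold in DMSO. CD24, a surface glycoprotein of carcinoma cells, was 600.4 against 424 CPM in DMSO, 425 against 224 CPM in RAC1i and 404 against 203 CPM in Combo. C3, complement component 3, was 133 against 93.7 CPM in DMSO, 87.2 against 45.4 CPM in RAC1i and 68.0 against 36.9 CPM in Combo. ALCAM, an adhesion molecule of the immunoglobulin family, had log2 ratios of 0.50, 1.12 and 1.00, the laminin chain LAMB3 0.49, 0.87 and 0.85 and the mitochondrial quality kinase PINK1 0.58, 0.83 and 1.09. In each of these genes the ratio was larger in both treated libraries than in DMSO.

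**Figure D3:**
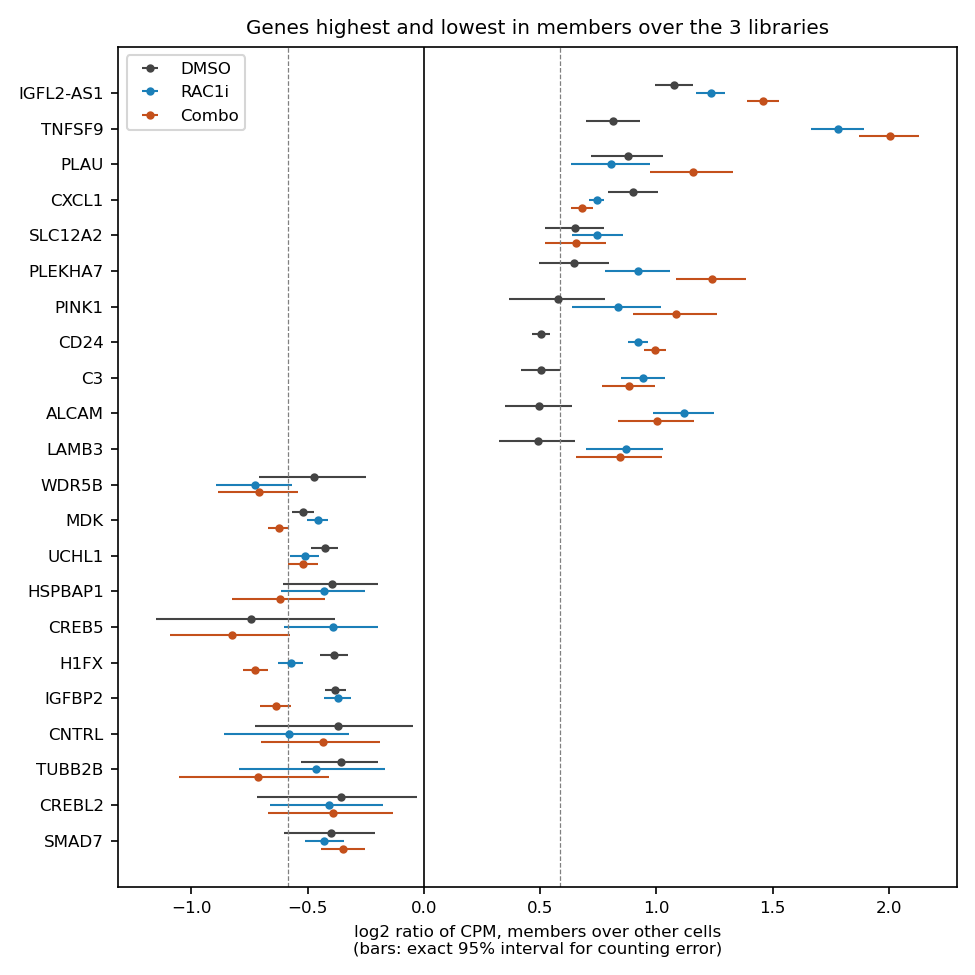
Log2 ratio of CPM in members over other cells for 11 of the genes with the highest and 11 of those with the lowest ratio over all 3 libraries, with exact 95% intervals for counting error and dashed lines at 1.5-fold. IGFL2-AS1 has the highest ratio in DMSO and TNFSF9 in both treated libraries, and the lower genes stay within 1.5-fold in at least 1 library.

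Lower genes changed less. MDK, the growth factor midkine, was 391 against 559.9 CPM in DMSO, 391 against 537 CPM in RAC1i and 375 against 578 CPM in Combo, UCHL1, a ubiquitin hydrolase of neurons and some tumours, had log2 ratios of -0.43, -0.51 and -0.52, and IGFBP2, a binding protein of insulin-like growth factors, -0.38, -0.37 and -0.64. The linker histone gene H1FX had -0.39, -0.57 and -0.72, the tubulin gene TUBB2B -0.36, -0.47 and -0.71 and SMAD7, an inhibitor of TGF-beta signalling, -0.40, -0.43 and -0.35. WDR5B, HSPBAP1, CREB5, CNTRL and CREBL2 were also among the 12 lowest, with their ratios between -0.82 and -0.35. Each of the 12 was lower in members in all 3 libraries, with the upper bound of its fold below 1.

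CTH, FST and LGALS14 were the highest genes in DMSO at 10 CPM or more outside the 12 highest over all libraries. CTH was 40.8 against 12.96 CPM in DMSO, 15.3 against 3.82 CPM in RAC1i and 11.2 against 2.62 CPM in Combo, and it missed the group of 11 only through its low level after treatment. FST, the activin antagonist follistatin, was 21.5 against 9.96 CPM in DMSO, 4.27 against 4.4 CPM in RAC1i and 3.66 against 3.23 CPM in Combo. LGALS14, a placental galectin, was 30.8 against 15.9 CPM in DMSO, 96.8 against 74.9 CPM in RAC1i and 63.2 against 51.2 CPM in Combo. Among the lowest in DMSO were KRT81 and CRISPLD2, with log2 ratios of -2.08 and -0.96. KRT81, a hair keratin with near-identical copies, had only 24 UMIs in DMSO members. CRISPLD2, a secreted protein, was at 5.45 against 10.7 CPM.

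CYP1A1 was among the highest in RAC1i and CYP1B1 in Combo. CYP1A1, a cytochrome P450 controlled by the aryl hydrocarbon receptor (AHR), was 2.4 against 0.73 CPM in DMSO, 32.6 against 12.4 CPM in RAC1i and 47.0 against 12.3 CPM in Combo, where the DMSO members held only 22 UMIs. After thinning it was seen in 1.36, 21.8 and 24.5% of members and 0.753, 9.05 and 8.7% of other cells of DMSO, RAC1i and Combo, and before thinning in 5.78, 39.8 and 44.4% and 1.99, 18.3 and 19.2%. CYP1B1, a second P450 of that kind, was 2.73 against 2.66 CPM in DMSO, 48.7 against 22.1 CPM in RAC1i and 35.2 against 15.6 CPM in Combo. Other AHR targets looked up after these values were seen did not differ in this way: TIPARP had log2 ratios of -0.10, 0.05 and 0.04 and NQO1 0.06, -0.11 and -0.11.

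RGCC, a regulator of the cell cycle, was 33.9 against 26.1 CPM in DMSO, 38.7 against 13.7 CPM in RAC1i and 34.8 against 10.8 CPM in Combo. The small nucleolar RNA host gene SNHG4 had log2 ratios of 0.44, 1.27 and 1.31, IL1R1, the interleukin-1 receptor, 0.32, 1.24 and 1.73, and CDH6, a cadherin of renal and ovarian epithelium, 0.23, 0.96 and 1.53. FAM207A had 0.00, 0.99 and 1.17. Their DMSO ratios were at most 0.44, and their ratios in both treated libraries at least 0.96. They were named for a high ratio in a treated library or for a rise of the ratio with treatment, so this gap follows from that choice. The ratio moved the other way with treatment for IER5, an immediate early gene, at 0.48, -0.25 and -0.30, and for the transcript AC145207.5, at 0.14, -0.58 and -0.63. Both were named for that fall.

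The lowest in the treated libraries included metallothioneins, small proteins that bind zinc. MT1B was 21.6 against 43.95 CPM in RAC1i and 37.5 against 95.9 CPM in Combo, with 0 UMIs in DMSO members. MT1G was 9.84 against 20.4 and 26.8 against 39.6 CPM. These genes are near-identical copies, so reads may be split among them. BEX1 had log2 ratios of -0.64, -0.81 and -1.36, the pentraxin gene PTX3 -1.03, -0.38 and -1.21, the zinc finger gene ZNF442 -1.06 in RAC1i and -0.56 in Combo, and AC100800.1 -0.55 and -1.43.

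Among TNF superfamily ligands, only TNFSF9 and TNFSF13 of 17 reached the minimum level. TNF itself was under the minimum in DMSO, at 2.07 against 2.05 CPM. In the treated libraries it was lower in members, at 49.7 against 79.9 CPM in RAC1i and 25.5 against 50.8 CPM in Combo. TNFSF13, the ligand APRIL, had log2 ratios of 0.34, 0.34 and 0.39. Of 21 receptors of the family 6 were measured, 4 were higher in all 3 libraries (30.1% over all genes) and 0 passed 1.5-fold in all, with medians of 0.10, 0.24 and 0.32. TNFRSF10A, a death receptor for TRAIL, had 0.37, 0.85 and 0.62 and TNFRSF10B, the other one, 0.06, -0.27 and -0.31. CD27, the receptor of CD70, had 0, 0 and 0 UMIs in members and 2, 1 and 5 in other cells, and TNFRSF9, the receptor of TNFSF9, was at 0.109, 0.871 and 0.578 CPM in members.

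CD70 and TNFSF9 are neighbours. TNFSF9 lies at chr19:6531026-6535924, 47.3 kb from CD70, and C3 at chr19:6677704-6730562, 73.6 kb away on the other side. TNFSF14, the ligand LIGHT, lies between CD70 and C3 and was 2.62 against 1.48 CPM in DMSO, 13.4 against 7.32 CPM in RAC1i and 7.6 against 6.01 CPM in Combo, under the minimum in DMSO. Within 1 Mb of CD70, 29 genes were measured, of which 10 were higher in all 3 libraries and 1 was lower, with medians of 0.00, 0.19 and 0.21. Near FLG, 6 of 11 were higher and 2 lower, with medians of 0.05, 0.12 and 0.06, and near UCA1 5 of 16 were higher and 1 lower, with medians of 0.03, 0.08 and 0.09. Over all genes 30.1% were higher and 20.4% lower in all 3 libraries. The counts of higher genes near CD70 and UCA1 were close to that share, while those of lower genes were below it. Near CD70 the medians in RAC1i and Combo also lay above those of all genes, 0.06 and 0.07. Over whole chromosomes the medians of the autosomes and X ran from -0.05 to 0.04 in DMSO, from -0.03 to 0.11 in RAC1i and from -0.04 to 0.16 in Combo, with chromosome 3 the lowest in each.

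FLG, CD70 and UCA1 were listed by the study as markers of a cluster with immune response genes, and its other listed markers were examined here. FLG was listed for a second cluster too, with PLCG2, KCNQ1OT1, MT-ND6 and MT-ND5. Of these, PLCG2, a phospholipase, had log2 ratios of -0.02, 0.36 and 0.35 in DMSO, RAC1i and Combo, KCNQ1OT1 0.03, 0.41 and 0.12, MT-ND6 0.15, 0.32 and 0.13 and MT-ND5 0.12, 0.29 and 0.12. Both lists were chosen on these samples and are not independent evidence. Of the 7 genes listed with the first cluster, 5 were measured in all libraries, 3 were higher in all 3 and 1, CXCL1, passed 1.5-fold, beside 30.1% and 0.131% over all genes, with medians of 0.26, 0.74 and 0.43. CA2, a carbonic anhydrase, was 90.2 against 48.3 CPM in DMSO, 18.4 against 9.66 CPM in RAC1i and 11.5 against 8.56 CPM in Combo. The junction gene CLDN1 had log2 ratios of 0.16, 0.78 and 0.85, IER3, a stress response gene, 0.05, -0.12 and -0.20, and the chemokine gene CXCL2 0.26, 0.08 and -0.28. CXCL8 was 1.85 against 3.63 CPM in DMSO, 67.3 against 33.9 CPM in RAC1i and 21.8 against 14.1 CPM in Combo, with 17 UMIs in DMSO members, and the cytokine gene IL6 was 2.07 against 2.89 CPM in DMSO, 160.0 against 137 CPM in RAC1i and 74.0 against 77.4 CPM in Combo. CXCL3 had 0.16, -0.16 and -0.30.

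The overlap with cells chosen by CXCL1, CXCL2, CXCL3, CXCL8 and IL6 together was small, at 8.5, 9 and 8.39% of members against 5% of all cells. Of the members, 4.42, 10.5 and 12.4% were among the top 5% by CRYAB, KRT7, LGALS1 and LGALS3, markers of another cluster of the study, and 7.14, 10.5 and 8.39% among the top 5% by mitochondrial genes. Of the 5 chemokine and IL6 genes 2 were measured in every library, with 1 past the fold and medians of 0.58, 0.41 and 0.20. The CXCL genes are close copies of each other. A second list, of immune pathway genes, also came from these samples and is no independent evidence either. Of its 19 genes 15 were measured, 12 were higher in all 3 libraries and 2, TNFSF9 and PLAU, passed 1.5-fold, beside 30.1% and 0.131% over all genes, with medians of 0.34, 0.35 and 0.63. EFNA1, an ephrin, was the lowest of it, with 0.19, -0.51 and -0.58.

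Most other genes of the epidermis were hardly detected, and those measured lay on both sides of 0. Of 37 genes of epidermal differentiation in the files 5 were measured, 2 were higher and 1 was lower in all 3 libraries (30.1% and 20.4% over all genes), 0 passed 1.5-fold in all, and the medians were 0.03, 0.02 and 0.03. PI3, the protease inhibitor elafin, was 24.4 against 12.9 CPM in DMSO, 33.6 against 22.4 CPM in RAC1i and 23.8 against 17.9 CPM in Combo, while KRT17 was 4.47 against 8.02 CPM in DMSO, 9.4 against 13.2 CPM in RAC1i and 4.33 against 9.07 CPM in Combo. FLG2, the nearest relative of FLG, had 4, 5 and 2 UMIs in members, and FLG-AS1, transcribed opposite to FLG, was 5.56 against 3.56 CPM in DMSO, 4.0 against 1.72 CPM in RAC1i and 2.02 against 1.15 CPM in Combo. Of 9 keratinocyte markers in the files 1 was measured, KRT10, with 0.03, 0.02 and -0.04, and 6, 5 and 5 had no UMI in members. Their summed level was 161, 289 and 254 CPM in members and 158, 285 and 260.2 CPM in other cells.

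Of S100 genes, calcium-binding proteins of which most lie in the same region of chromosome 1, 9 of 12 were measured, 8 were higher in all 3 libraries and 0 passed 1.5-fold in all, with medians of 0.21, 0.24 and 0.24, beside 30.1% higher over all genes. S100A11 was 1101 against 951 CPM in DMSO, 1046 against 707 CPM in RAC1i and 1023 against 639 CPM in Combo, and S100A2 had log2 ratios of -0.05, 0.08 and 0.22. Of 10 keratins 5 were measured, 2 were higher and 1 lower in all 3, with medians of 0.01, 0.45 and 0.48. KRT19, of simple epithelia, was 646 against 447 CPM in DMSO, 311 against 221 CPM in RAC1i and 347 against 248 CPM in Combo and KRT8 521 against 518 CPM in DMSO, 363 against 383 CPM in RAC1i and 376 against 401 CPM in Combo. Markers of other cell types were near 0: the summed level in members was 0.545, 2.79 and 2.5 CPM for 10 lymphocyte genes, 1.2, 9.31 and 7.99 for 8 myeloid genes, 4.69, 3.83 and 4.52 for 8 fibroblast genes and 1.64, 2.52 and 2.21 for 5 endothelial genes. In other cells the same sums were 0.862, 2.47 and 2.59, then 2.15, 11.2 and 11.2, then 6.06, 5.57 and 5.41, and 1.33, 1.86 and 1.89 CPM. Of these 4 lists only COL1A1, a fibroblast gene, reached the minimum level, with log2 ratios of -0.32, -0.62 and -0.20.

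Genes of G2/M phase were slightly lower, and those of S phase were not. Of 52 genes of G2/M phase 50 were measured, 35 were lower in all 3 libraries and 1 was higher, against 20.4% lower and 30.1% higher over all genes, with medians of -0.16, -0.18 and -0.14 and 0 past 1.5-fold in all. HMGB2, a chromatin protein of dividing cells, was 163 against 205 CPM in DMSO, 86.6 against 145 CPM in RAC1i and 92.9 against 142 CPM in Combo. RANGAP1, of nuclear transport, was the highest of the list at -0.01, 0.28 and 0.24. Of 37 measured S phase genes 16 were higher and 4 lower, with medians of 0.08, 0.05 and 0.03, and MCM4, a subunit of the replicative helicase, had log2 ratios of 0.17, 0.67 and 0.65, and PRIM1, a primase subunit, -0.21, -0.23 and -0.38. Of the members, 2.38, 2.25 and 4.66% were also among the top 5% of their library by the G2/M list and 5.78, 6.75 and 5.9% by the S phase list. Of 12 measured G1 cyclins and CDK inhibitors 3 were higher and 6 lower, with medians of -0.13, -0.11 and -0.02, and CDKN1B, the inhibitor p27, had -0.37, -0.46 and -0.26, and E2F1, a factor of S phase entry, 0.19, 0.56 and 0.46. Within the cells in the lower 50% by both cell cycle lists, the G2/M medians averaged 0.03 in place of -0.16. These cells were chosen by the same genes, so a smaller difference can follow from the choice alone.

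All 13 genes of the mitochondrial genome were higher in members in all 3 libraries, beside 30.1% of all genes, with medians of 0.15, 0.35 and 0.23, and 0 passed 1.5-fold. MT-CO1, a subunit of cytochrome c oxidase, had log2 ratios of 0.19, 0.39 and 0.44, and MT-ND2, of complex I, 0.12, 0.22 and 0.14. Nuclear-retained RNAs moved with them: 3 of 3 measured were higher, with NEAT1 at 0.16, 0.35 and 0.46 and MALAT1 at 0.08, 0.22 and 0.18. The part of this higher mitochondrial and nuclear share in the other differences was not tested. With the 5% of cells highest in mitochondrial share left out, the count of genes past 1.5-fold higher in all 3 libraries was 11, though AREG was no longer among them.

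Among gene groups of epithelial identity, 19 of 20 junction genes were measured, 11 were higher and 3 lower in all 3 libraries, with medians of 0.05, 0.31 and 0.36, beside 30.1% higher and 20.4% lower over all genes. CDH6, named above, was the highest and the tight junction gene CLDN6 the lowest, at -0.62, -0.33 and -0.47. Of 18 measured genes of the secretory and serous lineage 7 were higher and 1 lower, with medians of 0.08, 0.24 and 0.19, a share of higher genes near that of all genes. PAX8, the lineage factor of the fallopian tube and serous carcinoma, was 338 against 362 CPM in DMSO, 92.2 against 52.98 CPM in RAC1i and 80.4 against 46.6 CPM in Combo. SOX2 had log2 ratios of -0.24, -0.28 and 0.03, ALDH1A1, an aldehyde dehydrogenase used as a marker of stem-like tumour cells, 0.25, 0.48 and 0.50, and WFDC2, the gene of the serum marker HE4 and the lowest of the list, -0.17, -0.15 and -0.29. OVGP1, oviductal glycoprotein, had -0.44 in RAC1i and -0.45 in Combo, and only 1 UMI in DMSO members. ALDH1A1 was under the minimum level after treatment, with 36 UMIs in RAC1i members and 27 in Combo members. Its fold intervals, 0.955 to 1.94 in RAC1i and 0.902 to 2.05 in Combo, included 1.

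Of 9 measured genes of mesenchymal state and invasion 6 were higher and 1 was lower, with 1 (PLAU) past the fold, beside 30.1%, 20.4% and 0.131% over all genes, and medians of 0.06, 0.30 and 0.52. PLAUR, the receptor of urokinase, lay on the other side of 0 from PLAU, at -0.14, -0.75 and -0.63. Of 9 measured class I antigen presentation genes 8 were higher in all 3, against 30.1% over all genes, with medians of 0.22, 0.15 and 0.17, and HLA-E had 0.39, 0.41 and 0.24, though HLA genes share sequence. B2M, the light chain of class I molecules, was higher in DMSO and lower in both treated libraries, at 0.19, -0.12 and -0.17.

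Lists of signalling targets stayed close to the median of all genes in DMSO, and only AREG of them passed 1.5-fold in all libraries. Over all genes 30.1% were higher and 20.4% lower in all 3 libraries. The list of YAP and TEAD targets had 18 measured genes, 6 higher and 6 lower in all 3 libraries, with medians of 0.03, -0.07 and -0.02. Its highest was MYOF, a membrane repair protein, at 0.23, 0.60 and 0.81 and its lowest AMOTL2, a YAP target and regulator, at -0.21, -0.58 and -0.65. The list of AP-1 factors had 8 measured genes, 2 higher and 1 lower in all 3 libraries, with medians of 0.03, 0.04 and -0.06. Its highest was FOSL2, an AP-1 subunit, at 0.07, 0.38 and 0.40 and its lowest ATF3, a stress-induced factor, at -0.74, 0.03 and -0.09. The ERK and EGFR feedback list had 12 measured genes, 5 higher and 2 lower, with medians of 0.05, 0.01 and 0.03. Beside AREG, SPRED1, an inhibitor of RAS signalling, was its lowest at -0.40, -0.22 and -0.21. The list of TGF-beta targets had 12 measured genes, 4 higher and 4 lower in all 3 libraries, with medians of 0.00, 0.00 and -0.05. Its highest was PMEPA1, a feedback inhibitor of TGF-beta signalling, at 0.40, 0.79 and 0.98 and its lowest SMAD7 at -0.40, -0.43 and -0.35. The hypoxia list had 20 measured genes, 5 higher and 4 lower in all 3 libraries, with medians of 0.03, 0.01 and 0.08. Its highest was ERO1A, an oxidase of the endoplasmic reticulum, at 0.15, 0.40 and 0.46 and its lowest DDIT4, an inhibitor of mTORC1, at -0.06, -0.40 and -0.63. For hypoxia, the highest and the lowest gene thus lay on opposite sides of 0.

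Immune and stress lists are set beside the same shares of all genes, 30.1% higher and 20.4% lower. The interferon list had 7 measured genes, 3 higher and 2 lower in all 3 libraries, with medians of 0.02, 0.01 and -0.13. Its highest was DDX58, the RNA sensor RIG-I, at 0.26, 0.43 and 0.49 and its lowest IRF9, a subunit of the interferon factor ISGF3, at -0.10, -0.31 and -0.38. The NF-kB feedback list had 10 measured genes, 1 higher and 3 lower in all 3 libraries, with medians of 0.02, -0.05 and -0.23. Its highest was TNFAIP2, a target of TNF, at 0.23, 0.46 and 0.51 and its lowest RELB, an NF-kB subunit, at 0.07, -0.49 and -0.67. The integrated stress response list had 16 measured genes, 3 higher and 7 lower in all 3 libraries, with medians of -0.07, -0.07 and -0.05. Its highest was SLC7A5, an amino acid transporter, at 0.06, 0.65 and 0.49 and its lowest DDIT4, an inhibitor of mTORC1, at -0.06, -0.40 and -0.63. CTH, which also belongs there, was under the minimum level after treatment. The heat shock list had 13 measured genes, 3 higher and 1 lower in all 3 libraries, with medians of 0.09, -0.06 and -0.02. Its highest was HSPA8, a constitutive chaperone, at 0.11, 0.25 and 0.42 and its lowest BAG3, a co-chaperone, at -0.09, -0.23 and -0.20. The p53 target list had 7 measured genes, 2 higher and 0 lower in all 3 libraries, with medians of 0.00, 0.17 and 0.25. Its highest was PHLDA3, an inhibitor of AKT, at 0.38, 0.92 and 0.64 and its lowest SESN2, a stress sensor of mTORC1, at -0.22, -0.07 and 0.25. None of these 5 lists held a gene past 1.5-fold in all 3 libraries.

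Metabolic lists had 0 genes past 1.5-fold as well, and their counts also stand beside 30.1% higher and 20.4% lower over all genes. The NRF2 target list had 12 measured genes, 6 higher and 3 lower in all 3 libraries, with medians of 0.01, 0.10 and 0.24. Its highest was ME1, malic enzyme, at 0.32, 0.59 and 0.79 and its lowest FTL, ferritin light chain, at -0.27, -0.31 and -0.18. The cholesterol synthesis list had 18 measured genes, 8 higher and 0 lower in all 3 libraries, with medians of 0.06, 0.20 and 0.14. Its highest was MVK, mevalonate kinase, at 0.25, 0.48 and 0.17 and its lowest IDI1, an isomerase of isoprenoids, at 0.07, -0.04 and -0.24. The glycolysis list had 15 measured genes, 6 higher and 3 lower in all 3 libraries, with medians of 0.13, 0.02 and 0.01. Its highest was PFKP, a phosphofructokinase, at 0.32, 0.78 and 0.66 and its lowest LDHB, a lactate dehydrogenase, at -0.10, -0.19 and -0.14. Metallothioneins differed more in both treated libraries: with the zinc exporter SLC30A1 counted among them 4 genes were measured, 0 were higher and 3 were lower in all 3 libraries, with medians of -0.12, -0.65 and -0.60. MT1X was 51.2 against 57.2 CPM in DMSO, 1116 against 1809 CPM in RAC1i and 1777 against 2695 CPM in Combo, and SLC30A1 had log2 ratios of 0.25, -0.34 and -0.40. The list of lncRNAs known from cancer, to which UCA1 belongs by kind, had 9 measured genes, 3 higher and 1 lower in all 3 libraries, with medians of 0.07, -0.03 and -0.11. Its highest was DANCR, a lncRNA, at 0.08, 0.19 and 0.16 and its lowest SNHG17, a lncRNA host gene, at 0.06, -0.42 and -0.49.

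**Figure D4:**
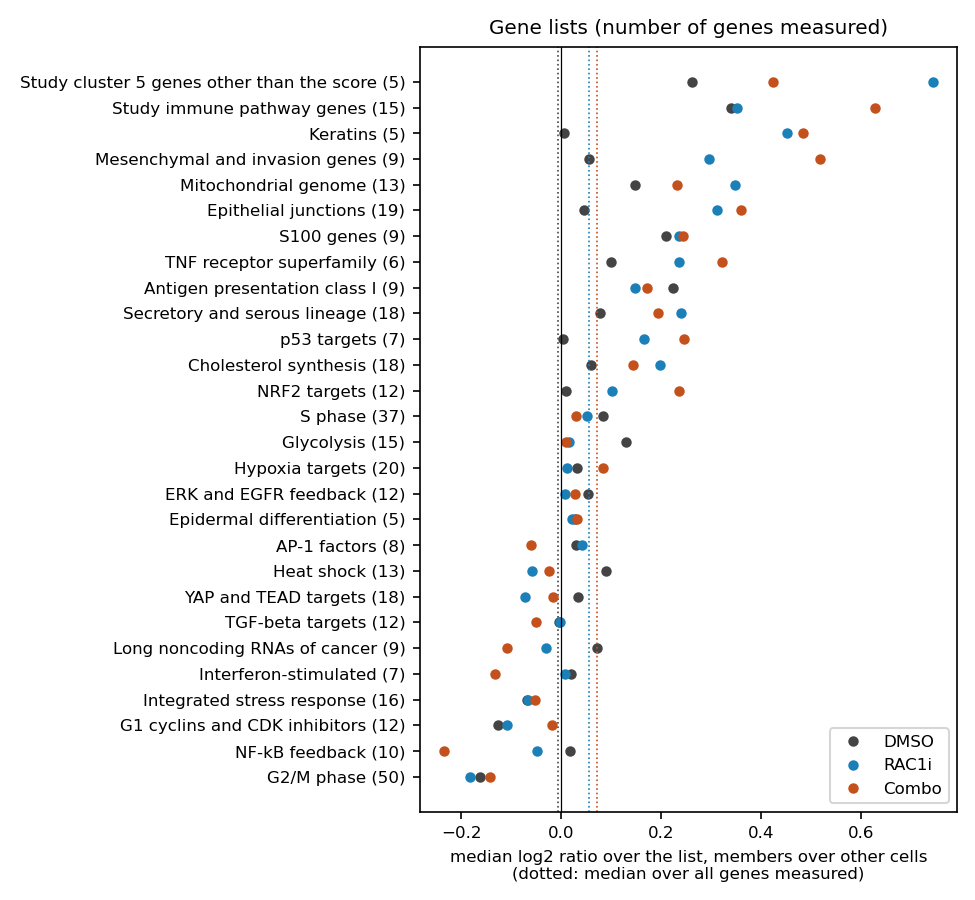
Median log2 ratio of members over other cells for each gene list with at least 5 measured genes (the number in brackets), 1 point per library, with the median over all 8407 genes as a dotted line of the same colour. The G2/M list lies below 0 and the S100, class I and mitochondrial genome lists above 0 in each library, while most signalling lists lie near the dotted lines. The integrated stress response, G1 and TGF-beta lists also lie below 0 in each library, and several others, such as epithelial junctions, also lie above 0.

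In both treated libraries, genes with a lower level after treatment were mostly higher in members than in other cells, and genes with a higher level after treatment mostly lower. This was noticed after the values were seen and no test was made. Genes were chosen in 1 treated library by the level of its other cells against the other cells of DMSO, and the members were then measured in the other treated library, so that no cell served in both steps. The score genes, chemokines, IL6 and metallothioneins were left out. Of 1413 genes at least 2-fold lower in Combo than in DMSO, 84.4% were higher in RAC1i members than in other RAC1i cells, with a median log2 ratio of 0.26. Of 838 genes at least 2-fold higher in Combo, 22.6% were higher in RAC1i members, with a median of -0.13. Of 2453 genes within 0.32 of 0 on the log2 scale it was 59.6%. The reverse choice gave the same order in Combo members: 86.9% of the genes lower in RAC1i, 61.4% of those within 0.32 and 19.7% of those higher in RAC1i.

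Single genes show the size of this. PAX8 was 3.66-fold lower in RAC1i members than in DMSO members, and 6.84-fold lower in other RAC1i cells than in other DMSO cells. For CDH6 the folds were 15.9 in members and 26.2 in other cells, and for IL1R1 3.78 and 7.13. MT1X was 21.8-fold higher in RAC1i members and 31.6-fold higher in other cells, and EFNA1 6.71-fold and 10.9-fold. CDH6, IL1R1, EFNA1 and MT1X were named for their ratios of members over other cells, so the smaller fold in their members follows from that choice, while PAX8 was named by the study. SOX2, also named by the study, did not show the gap in RAC1i, at 4.96-fold lower in members and 4.83-fold lower in other cells, and OVGP1 could not be compared with 1 UMI in DMSO members. SMAD7, by contrast, was 4.26-fold higher in RAC1i members and 4.33-fold higher in other cells, and in Combo 3.72-fold and 3.58-fold. SIRT7, a nuclear deacetylase, was 41.5 against 44.2 CPM in DMSO, 175 against 206 CPM in RAC1i and 179 against 224 CPM in Combo. The drug targets themselves had log2 ratios near 0 between members and other cells, -0.12, -0.06 and -0.02 for RAC1 and -0.01, 0.04 and -0.09 for EZH2.

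The pattern was also seen in cells chosen by 1 score gene at a time. RAC1i cells chosen by CD70 or UCA1 alone also had more FLG, by log2 ratios of 1.98 and 1.245. These choices therefore cannot separate the pattern from FLG, and the part of FLG in it was not tested. FLG, CD70 and UCA1 were all lower in the treated libraries, and cells chosen by each of them alone had 86.1%, 68.9% and 83.4% of the genes lower in Combo at a higher level in RAC1i. Of the genes within 0.32 of 0, the shares in the same cells were 61.7%, 49.1% and 63.5%. In RAC1i cells chosen by chemokines and IL6 the share was 28.6%, and in those chosen by metallothioneins 27.6%. This was close to the 27.2% and 22.2% of the genes within 0.32 of 0 in the same cells. Of the genes higher in Combo, 52.3% and 38.2% were higher in these cells. The genes of this choice had higher levels after treatment: CXCL1 9.76-fold, IL6 47.4-fold and MT1X 31.6-fold in other RAC1i cells over other DMSO cells. No lowered gene beside FLG, CD70 and UCA1 was used to choose cells. Whether the pattern is particular to them was not tested. Further settings were run without leaving out chemokines, IL6 and metallothioneins, on 1413 lower and 842 higher genes. With other cells weighted to the members' depth, the shares for the members were 84.5% of the genes lower in Combo and 22.8% of those higher. Leaving out cells with a barcode that another library also held gave 84.2% and 22.7%. After thinning the shares were 82.2% and 26.1%, and with equal weights of the 3 genes 79.8% and 23.9%. With the cells highest in mitochondrial share left out they were 81.5% and 26.4%, and with those highest in UMIs left out 85.0% and 22.7%.

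**Figure D5:**
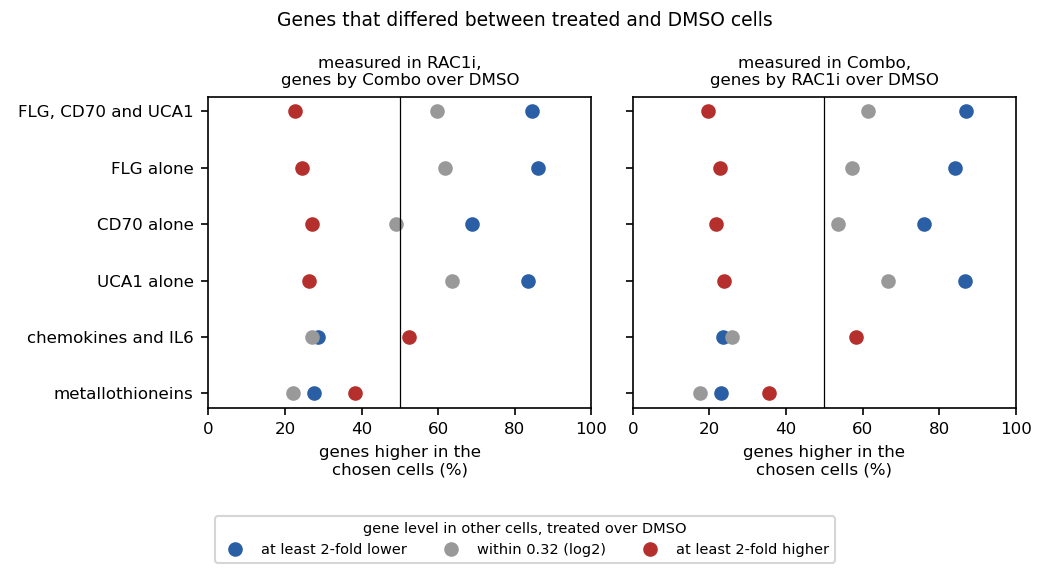
Share of genes that were higher in the chosen cells than in the other cells of the same library, for genes at least 2-fold lower (blue), within 0.32 of 0 on the log2 scale (grey) or at least 2-fold higher (red) in the other cells of the other treated library than in those of DMSO. In both panels the blue points of the top 4 rows, the score and its 3 genes, lie above 65% and the red points below 30%. In cells chosen by chemokines or metallothioneins, which were higher after treatment, the red points lie above the blue ones.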

How the data were processed

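OVCAR3 cells of 3 conditions were each profiled as 1 library by droplet 3′ scRNA-seq. The authors deposited UMI counts per gene and cell barcode, made with Cell Ranger 4.0.0 on GRCh38, which hold 207349619 UMIs in DMSO, 254860917 in RAC1i and 240453917 in Combo over 36601 genes. Barcodes were kept at more than 1000 detected genes, no more than 20% of UMIs from mitochondrial genes and a ratio of log10 genes to log10 UMIs above 0.8, as in the study, and those with at least 10000 UMIs were scored. UMIs were summed over members and over other cells and divided by all UMIs of those cells (CPM). Ratios have exact conditional intervals at 95%, with 0.5 UMIs added to both sums for the log2 ratio. A gene was called measured at 5 CPM or more in each library. The text names the 3 score genes, the 12 highest and 12 lowest genes over all libraries and 3 each way per library at 10 CPM or more, the 3 whose ratio was most above and the 3 most below that of DMSO in both treated libraries, genes the study named, both drug targets, and the highest and lowest gene of each of 37 lists. A few genes that the rule names are not reported here. The rest of the 11 genes past 1.5-fold, and TNF, TNFSF14, FLG2, FLG-AS1, CD27, TNFRSF9, TIPARP, NQO1, PLCG2, KCNQ1OT1, MT-ND5 and MT-ND6, were chosen after their values were seen. The members and lists were chosen with earlier results of these data known. Gene positions were taken from GENCODE 44, which matched 99.4% of identifiers, and promoters from RefSeq. Scripts used Python 3.11.15, numpy 2.4.6 and scipy 1.17.1 and were tested on simulated data. The alternatives used other cells, scores, cuts, depths and scalings, the latter with factors of edgeR 4.0.16 and DESeq2 1.42.0. Each condition had 1 library, so no test was made.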

Additional observations from a re-analysis of the deposited data

Results flagged for a closer look

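KRT81, a hair keratin, was lower in DMSO members, with a log2 ratio to the other cells of -2.08. The ratio was 0.80 for RAC1i members and 0.38 for Combo members, opposite in sign to DMSO, with a fold interval in Combo of 0.997 to 1.66. The difference between conditions was not tested, since each is 1 library. After thinning to 10000 UMIs, KRT81 was seen in 2.04% of DMSO members and 2.35% of other cells, in 3.75% and 4.38% in RAC1i and in 5.28% and 3.52% in Combo, so the share of cells did not turn in the same way. In RAC1i its level was 34.9 CPM in the 67 members not led by FLG, against 8.13 CPM in those led by FLG and 7.20 CPM in other cells. The members held 24, 144 and 68 KRT81 UMIs, and KRT81 has near-identical copies among the hair keratins, so reads may be split. With the top 10% of cells by score as members, the mean log2 ratio over the 3 libraries was 1.01 in place of -0.30.

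FLG was also seen in cells that the score did not use. In Combo, kept cells with under 5000 UMIs had an FLG level of 178.9 CPM over 885 cells, against 50.9 CPM in cells with 20000 to 40000 UMIs. In RAC1i the values were 161 and 72.1 CPM, and in DMSO 143 and 212 CPM. MALAT1 and KCNQ1OT1, a nuclear lncRNA, also moved with depth: in Combo MALAT1 was 44628 CPM under 5000 UMIs and 15431 CPM at 20000 to 40000 UMIs, and KCNQ1OT1 739 and 65.0 CPM. In DMSO both went the other way, with MALAT1 at 9682 and 26212 CPM and KCNQ1OT1 at 66.5 and 265 CPM. Their part in the FLG values was not tested.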

How the results depend on the processing

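No paired analysis was possible because each condition had 1 library. The count of genes past 1.5-fold higher in all 3 libraries, 11, was 21 for the top 2% of cells, 2 for FLG alone, 33 for CD70 alone, 36 for UCA1 alone, 33 with equal weights, 22 after thinning, 21 in the lower 50% by cell cycle lists, 49 at a minimum of 1 CPM, 3 at 20 CPM, 1 at 2-fold and 111 past 0.32 on the log2 scale, and between 9 and 14 under the other alternatives. The count of lower genes, 0, was 3 for the top 2%, 1 for the top 10%, 1 for FLG alone, 26 for CD70 alone, 9 for UCA1 alone, 6 with equal weights, 1 after thinning, 4 in the lower 50% by cell cycle lists, 1 without the cells highest in mitochondrial share, 9 at 1 CPM and 34 past 0.32 on the log2 scale. The share of RAC1i cells over the DMSO cut, 0.939%, was 1.18% at a minimum of 20000 UMIs, 1.20% for FLG alone, 0.376% for CD70 alone, 5.77% with equal weights, and 0.288% and 1.99% at the 98th and 90th percentile. For Combo, 0.668%, the values were 0.901% for FLG alone, 0.249% for CD70 alone, 6.65% with equal weights, and 0.311% and 1.29%. Equal weights divide each gene by its mean in its own library, which removes the difference in level by construction. For the rest the cause was not tested.

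With other cells weighted to the depth of members, 116 of 117 named genes and 30 of 30 list medians moved by no more than the 95% counting interval of the gene or 0.1 of the list median, and without cells that share a barcode 117 and 30 did. Other choices of cells moved more of the 117 named genes past their counting interval. The number was 82 with CD70 alone, 73 with UCA1 alone, 65 with FLG alone and 62 with equal weights. It was 60 for the top 2%, 41 in cells low by the cell cycle lists and 37 after thinning. Under the remaining alternatives between 2 and 36 named genes moved. At most 10 of the 30 list medians moved, with CD70 alone. Changes of sign were counted only where the mean ratio was at least 0.1 in size. With CD70 alone 10 named genes changed the sign of their mean ratio. TMM and DESeq2 scaling moved the median of all genes by -0.07 and -0.08 in Combo and turned no sign of a ratio of that size. The alternatives without shared barcodes and without the highest mitochondrial shares, and the comparison with the treatment response, were chosen after seeing the data. Low counts limit genes such as MT1B and CXCL8, whose sign depended on the choice of cells.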
